A study of Mus musculus with 6 samples.

Results

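The genes described here are 38 genes of striated muscle, the skeletal and heart muscle whose contractile proteins lie in repeating sarcomeres, out of 21887 protein-coding genes. They were examined in chromatin of pancreatic β-cells, where no sarcomere is built. The genes were chosen from earlier results of the same comparison between control and knockout libraries, so their differences between the groups are given as a description, without p-values, and counts of calls among them support nothing. A gene's territory was its span on mm10 plus 10 kb on each side. The measures taken in each territory were the bases covered by peaks in each library and the regions called in all libraries of a group. Both are the measures by which the genes were chosen.

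ATAC-seq, a method in which the Tn5 transposase cuts accessible DNA, was applied to β-cells flow-sorted for the red fluorescent protein Tomato from dispersed islets. There were 3 libraries labelled Control and 3 labelled Chd4KO, and the mice of both groups, controls included, had received tamoxifen. The design text calls the knockout mice Chd4Db, and the labels give neither the driver of the deletion nor the alleles or the age. Chd4 is a helicase and the motor subunit of the NuRD complex, which remodels nucleosomes and removes acetyl groups from histones. Whether each library of a group is a separate animal is not stated, so p-values measure the spread between these libraries, which may be technical.

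Each library is a deposited list of peaks, with 100109 to 110693 peaks over 58.0 to 63.81 Mb in the control libraries and 119088 to 124125 peaks over 65.82 to 69.14 Mb in the knockout libraries. The depth in reads is unknown. Because every knockout list covered more of the genome, values are given in bp as called, and differences between groups as log2 differences of bp scaled to the mean total of the 6 libraries, with 300 bp added. Scaling moved the median difference of all genes from 0.06 to -0.09. The identity of the cells was checked on 12 genes of β-cells, such as Ins1, Ins2, Mafa and Pdx1. The 12 territories together had 58705 to 62942 bp under peaks in the control and 59372 to 62533 bp in the knockout. That is 0.972 to 1.09 of every 1000 covered bases in the control and 0.894 to 0.904 in the knockout, which do not overlap. By limma 0 of the 12 were higher, where 7.57% of all genes were. Lower were 2 (Ins1 and Mafa), which is 16.7%, where 14.6% of all genes were. After scaling 11 of 12 differences were below 0, beside 11726 of 17711 over all genes tested. Without scaling these numbers were 6 of 12 and 6435 of 17711. At the start, 7 of the 8 genes with a listed start site had a peak in all 6 libraries. Peak lists come from bulk cells, so fewer cells of a type and less open chromatin per cell cannot be told apart.

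In developing muscle the basic helix-loop-helix factors MyoD, myogenin, Myf5 and Myf6 (MRF4) bind E-box sequences and, with MEF2 factors, switch on the genes of the sarcomere. Serum response factor binds the CArG box at actin and other contractile genes. The sarcomere is made of thick filaments of myosin and thin filaments of actin, the latter carrying troponin and anchored in Z-discs. Contraction starts when ryanodine receptors release calcium from the sarcoplasmic reticulum, where calsequestrin stores it. NuRD has been studied in muscle as a repressor that keeps genes of the other muscle type silent.

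The start sites of most of these genes carried no peak. The promoters below are shown because they set 3 genes with a peak at or beside the start in all 6 libraries (Ryr1, Actn2 and Des) against 3 without one in any library (Myog, Acta1 and Myh4). Each is the 250 bases before a listed start, 5′ to 3′ on the gene's strand, from RefSeq on GRCm38.p6. Capitals mark matches to an E-box (CANNTG), a MEF2 element or a CArG box.
Ryr1 promoter, chr7:29125152-29125401, minus strand: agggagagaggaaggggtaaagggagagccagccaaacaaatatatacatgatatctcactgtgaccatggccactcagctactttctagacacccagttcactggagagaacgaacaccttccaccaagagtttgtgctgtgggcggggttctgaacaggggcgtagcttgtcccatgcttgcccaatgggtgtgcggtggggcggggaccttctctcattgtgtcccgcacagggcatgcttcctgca
Actn2 promoter, chr13:12340733-12340982, minus strand: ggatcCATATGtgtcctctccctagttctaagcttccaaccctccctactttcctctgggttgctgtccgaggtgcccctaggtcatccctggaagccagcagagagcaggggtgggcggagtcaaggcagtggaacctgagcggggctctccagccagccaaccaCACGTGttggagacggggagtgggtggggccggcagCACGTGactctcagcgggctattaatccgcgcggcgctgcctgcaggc
Des promoter, chr1:75360042-75360291, plus strand: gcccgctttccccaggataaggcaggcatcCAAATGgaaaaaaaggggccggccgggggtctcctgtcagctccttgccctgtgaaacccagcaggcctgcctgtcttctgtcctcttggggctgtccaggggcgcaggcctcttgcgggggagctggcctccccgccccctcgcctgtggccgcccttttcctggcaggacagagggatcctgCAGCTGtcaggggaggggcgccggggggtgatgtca
Myog promoter, chr1:134289754-134290003, plus strand: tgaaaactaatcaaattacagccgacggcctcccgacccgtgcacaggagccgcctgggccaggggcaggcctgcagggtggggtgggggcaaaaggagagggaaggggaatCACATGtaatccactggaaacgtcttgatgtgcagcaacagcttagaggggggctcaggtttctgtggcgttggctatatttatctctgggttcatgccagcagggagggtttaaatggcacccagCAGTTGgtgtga
Acta1 promoter, chr8:123894776-123895025, minus strand: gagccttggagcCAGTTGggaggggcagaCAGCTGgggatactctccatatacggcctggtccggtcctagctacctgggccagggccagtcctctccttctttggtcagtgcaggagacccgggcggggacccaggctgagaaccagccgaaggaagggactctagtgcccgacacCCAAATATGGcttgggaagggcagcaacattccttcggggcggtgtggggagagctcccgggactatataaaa
Myh4 promoter, chr11:67237562-67237811, plus strand: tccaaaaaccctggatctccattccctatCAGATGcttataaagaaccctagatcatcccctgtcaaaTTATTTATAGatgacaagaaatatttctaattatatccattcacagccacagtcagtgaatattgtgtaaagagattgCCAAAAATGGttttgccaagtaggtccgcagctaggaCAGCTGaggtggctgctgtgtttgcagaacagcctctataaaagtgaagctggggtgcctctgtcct

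The Ryr1 promoter held none of these motifs, and that of Actn2 held 3 E-boxes, 2 of them CACGTG at positions -84 and -48 from the start. The Des promoter held an E-box of the form CAGCTG at -36 and that of Myog one of the form CAGTTG at -12. The Acta1 promoter held 2 E-boxes and the CArG box CCAAATATGG at -73. The Myh4 promoter held 2 E-boxes, the MEF2 element TTATTTATAG at -182 and the CArG box CCAAAAATGG at -104. Start sites were listed for 32 of the 38 genes, with 37 promoters, while Tnni2, Actn3, Myf6, Myod1, Neb and Tnnt3 were not matched. On both strands, 81.1% of these promoters held CANNTG, against 66.2% of 32841 promoters of the same length from all genes. Within that motif, the form CAGCTG was in 32.4% against 13.0% and the form CACCTG in 29.7% against 17.2%. A MEF2 element was in 16.2% against 2.92%, and a CArG box in 16.2% against 1.47%. Promoters of the same gene were counted separately, and both listed promoters of Ldb3, which overlap, counted as holding a CArG box. These shares describe letters in a window and not binding, and the motifs were not used in choosing the genes.

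In a window from 250 bases before to 50 after the start, a peak was present in all 6 libraries at 4 of the 32 genes, which is 12.5%, and in no library at 25, which is 78.1%. Among 17492 protein-coding genes with a listed start these shares were 60.0% and 35.2%. The 4 genes were Actn2, Des, Ryr1 and Ryr2. At Actn2 the peaks covered the whole window of 300 bases in every library, and at Ryr2 260 to 300 bases. At Des they reached only 4 to 13 bases into it, since the region called there begins 37 bp after the start. Mybpc1 and Ldb3 had a peak in 1 control and 1 knockout library, and Actc1 in 1 control library. The other start sites, including those of Myog, Myf5, every myosin heavy chain gene here, Acta1, Ttn and Ckm, had no peak in either group. Promoters of the 4 genes with a start-site peak had a median of 11 CpG dinucleotides, those of the other 28 genes a median of 5, and all promoters a median of 6.

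In the territories of the 38 genes lay 185 regions, counting once the 8 that fell to neighbouring members. Of these, 100 were called in all 6 libraries, which is 54.1% against 48.0% of all 156745 regions. Gained regions, with a peak in each of the 3 knockout libraries and in none of the control libraries, numbered 20, which is 10.8%, where 10.3% of all regions were gained. Lost regions, the reverse, numbered 3, which is 1.62%, where 2.62% of all regions were lost. The other 62 were called in another set of libraries. Both shares were near those of all regions.

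**Figure D1:**
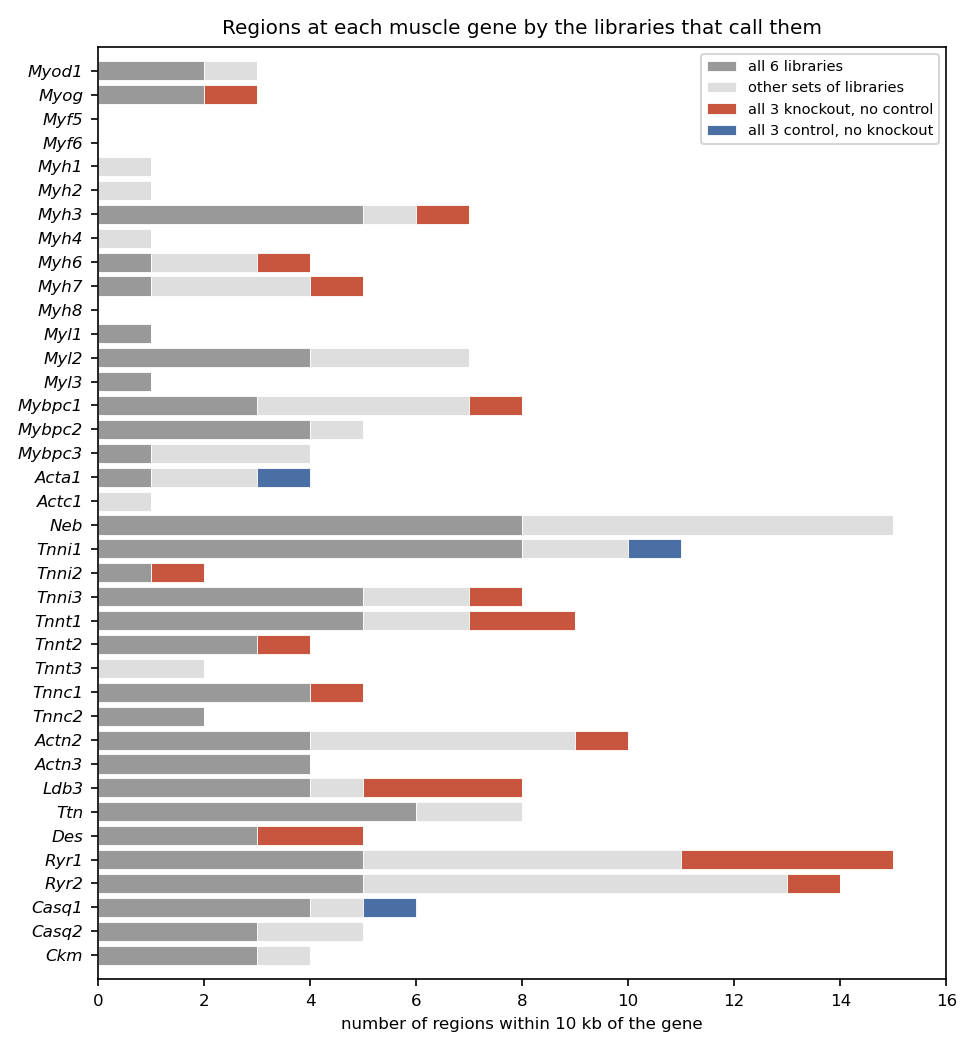
Number of regions called in the territory of each of the 38 genes (horizontal axis, count of regions), ordered by role and split into regions called in all 6 libraries, gained, lost and other; a region within reach of neighbouring members is drawn at each. Ryr1 has 4 gained regions, Ldb3 3, and Myf5, Myf6 and Myh8 have no region at all.

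The 20 gained regions lay at 15 of the genes and were 295 to 803 bp wide, with a median of 430 bp. Except for the region in Tnni2, whose start is not listed, none lay at a listed start site of its gene, and the nearest of these was 968 bp away, in Myog. Within a member's span lay 15 of them, which is 75.0%, while 79.2% of the 9728 gained regions in the territory of any gene lay within a span. Over or at the end of another gene lay 5. This count takes in the regions inside Myh7 and Tnnt1, which also fell to the neighbouring members Myh6 and Tnni3. The authors' −log10 q of the peaks in these regions had median percentiles of 50.1, 50.4 and 42.6 within the lists of knockout libraries 1 to 3, and 35.3, 36.0 and 32.9 over all gained regions. The annotation used gives spans without exons, so exonic and intronic positions were not told apart.

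Covered bases could be compared at 30 of the 38 genes. The other 8 (Myf5, Myf6, Myh1, Myh2, Myh4, Myh8, Myl3 and Actc1) had a mean under 300 bp over the 6 libraries. By limma with Benjamini-Hochberg adjustment over all 17711 genes tested, 6 of the 30 were called higher in the knockout, where 7.57% of all genes were, and 0 were called lower, where 14.6% were. The 6 were Myh6, Myh7, Myl2, Tnni2, Des and Ryr1. Without scaling 9 were called higher (the 6 with Tnnt1, Tnnt2 and Ldb3), beside 14.6% of all genes, and 0 lower, beside 2.88%. The groups did not overlap, knockout higher, at 9 genes, where 13.1% of all genes did so, and knockout lower at 7, where 32.7% did. Since the genes were chosen on this contrast, nothing is read from these counts. Their median log2 difference was 0.02, against -0.09 over all genes tested, with 16 of 30 above 0. Without scaling the medians were 0.16 and 0.06.

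**Figure D2:**
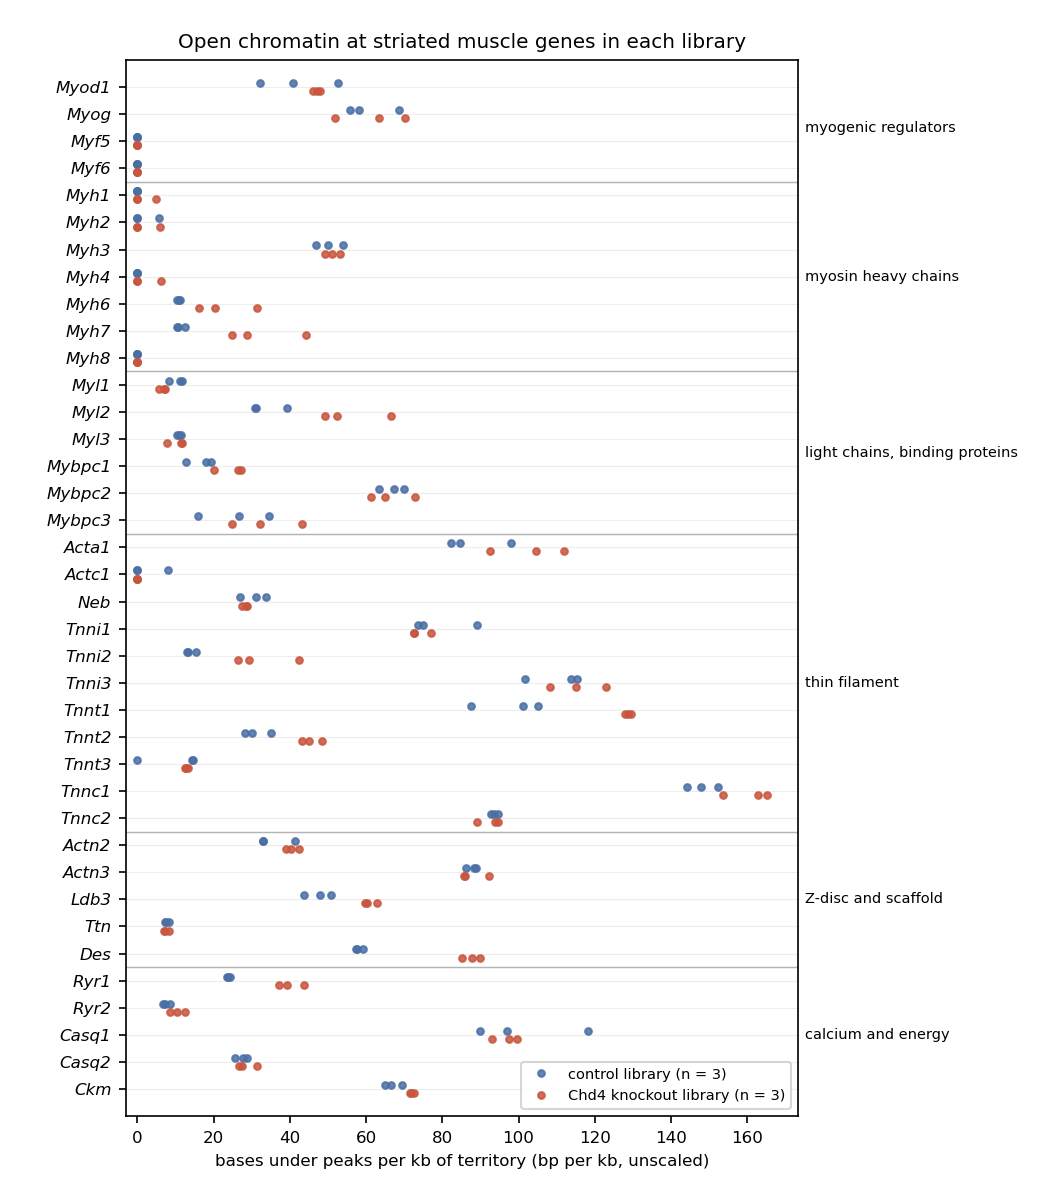
Bases under peaks per kb of territory for each gene and library (horizontal axis, bp per kb, unscaled), with 1 point per library, 3 control and 3 knockout, and genes grouped by role. Knockout points lie above all control points at Ryr1, Des, Myh7 and Ldb3, and below them at Myl1.

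The whole set of territories, joined into 32 blocks of 2543.8 kb, had 66061, 70489 and 64766 bp under peaks in control libraries 1 to 3. The knockout libraries had 80653, 77608 and 77210 bp, so that every knockout library lay above every control library. The ratio of the means was 1.17 (SD 0.059) as called and 1.04 (SD 0.037) after scaling, because the knockout lists covered more of the genome altogether. These SDs carry the spread of single libraries in both groups and are not standard errors of the ratio. By role, the unscaled ratio was 1.06 at the regulators, 1.36 at the myosin heavy chains, 1.24 at the myosin light chains and binding proteins, 1.07 at the thin filament, 1.16 at the Z-disc and scaffold genes and 1.27 at the genes of calcium release and energy. After scaling these ratios were 0.94, 1.21, 1.10, 0.95, 1.03 and 1.14, so that the direction turned at the regulators and the thin filament.

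The 4 regulators of the muscle lineage were split, with no peak at Myf5 and Myf6 and 3 regions each at Myod1 and Myog. Myf5 and Myf6, which lie side by side on chromosome 10 (Myf5 at 107482908 to 107486927, Myf6 at 107492848 to 107494723), had 0 bp in every library. Myod1 (chromosome 7, 46376474 to 46379092) had 1192, 923 and 725 bp in control libraries 1 to 3 and 1085, 1067 and 1044 bp in the knockout. The knockout values lay within the control range, and the log2 difference was 0.02 ± 0.14 (SE). Of the Myod1 regions 2 were called in all 6 libraries, and 1 of these (chr7:46379017-46379406) overlapped an end of the gene.

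Myog encodes myogenin, the factor that drives myoblasts to differentiate. Its territory (gene at chromosome 1, 134290004 to 134292548) had 1254, 1308 and 1546 bp in the control and 1428, 1579 and 1167 bp in the knockout, with overlapping groups and a difference of -0.13 ± 0.11. The region inside it (chr1:134290972-134291296) was gained, with 301, 325 and 298 bp in the knockout libraries. In the flank, a region over the neighbouring gene Ppfia4 was narrower in every knockout library, at 400, 635 and 421 bp against 733, 718 and 832 bp in the control. The gained bases and the narrower flank together left the total of the territory similar in both groups.

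Of the 7 myosin heavy chains, the motor proteins of the thick filament, Myh6 and Myh7 stood apart in the knockout. They encode the α and β cardiac isoforms and lie in tandem on chromosome 14 (Myh6 at 54941921 to 54968017, Myh7 at 54970684 to 54994626). Myh7 had 457, 549 and 469 bp in the control and 1939, 1259 and 1091 bp in the knockout. Every knockout library was above every control library, with a log2 difference of 0.98 ± 0.17, or 1.10 without scaling.

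The Myh7 territory held 5 regions. One, 713 bp before the start (chr14:54995339-54996154), was called in all 6 libraries and covered 457, 549 and 469 bp in the control and 799, 718 and 701 bp in the knockout. A gained region inside the gene (chr14:54973996-54974613) had 618, 222 and 390 bp. It also overlaps Mhrt, a long noncoding RNA of the heart transcribed from this locus. The peak of knockout library 2 there was weak, at percentile 1.2 of its list by the authors' −log10 q, against 41.3 and 26.6 in libraries 1 and 3. The remaining 3 regions were each called in 1 knockout library.

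Myh6 had 481, 515 and 505 bp in the control and 1443, 942 and 744 bp in the knockout, a difference of 0.59 ± 0.18 with separate groups. Its control bases all came from 1 region over the neighbour Cmtm5, which had 348, 518 and 354 bp in the knockout, so that the added bases lay in the gained region shared with Myh7 and in 2 regions called in 1 or 2 knockout libraries. Its difference was 0.39 without knockout library 1. The call was also lost without knockout library 2 or any single control library (0.58 to 0.64), and it was -0.10 with 50 kb flanks and -0.19 with the 50000 strongest peaks per library. At Myh7 the difference was 0.77 to 1.10 with 1 library left out and 0.07 with 50 kb flanks.

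The other 5 heavy chains stand in a cluster on chromosome 11. Myh3, the embryonic isoform, had 2056, 2195 and 2374 bp in the control and 2249, 2338 and 2166 bp in the knockout. These overlap as called, and after scaling the knockout lay lower, by -0.12 ± 0.07. Inside Myh3 a region was gained (chr11:67100055-67100533, with 273, 475 and 393 bp), another (chr11:67081048-67081680) covered 317, 358 and 525 bp in the control and 603, 633 and 586 bp in the knockout, and one more (chr11:67085304-67085953) went the other way, with 633, 559 and 650 bp against 303, 332 and 331 bp. Further along the cluster, Myh1, Myh2 and Myh4, the fast adult isoforms, and Myh8, the perinatal one, had hardly any peak. Myh8 was at 0 in every library. Myh1 and Myh4 had 211 and 268 bp in knockout library 1 alone, and Myh2 had 265 bp in control library 2 and 271 bp in knockout library 2.

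Among the light chains and binding proteins of myosin, Myl2 and Myl1 lay at opposite ends. Myl2 encodes the regulatory light chain of the ventricle and of slow muscle (chromosome 5, 122092724 to 122113473). It had 1266, 1601 and 1264 bp in the control and 2132, 2719 and 2005 bp in the knockout, which do not overlap, with a difference of 0.48 ± 0.10. No region there was gained, and the added bases lay in wider peaks and in regions called in 1 or 2 knockout libraries. The region 3132 bp before the start (chr5:122088916-122089592) covered 384, 371 and 505 bp in the control and 557, 673 and 655 bp in the knockout, and the one 1274 bp before the start (chr5:122091110-122091450) 286, 276 and 264 bp against 338, 323 and 323 bp. Another 3 regions overlap the neighbour Ccdc63. The Myl2 call was lost without control library 1 or 3, with a difference of 0.45 in both cases.

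Myl1 encodes the essential light chain of fast fibres (chromosome 1, 66924295 to 66947932) and had a single region, called in all 6 libraries. It covered 515, 488 and 356 bp in the control and 318, 249 and 308 bp in the knockout. All knockout values lay below all control values, with and without scaling (-0.44 ± 0.16 and -0.34). Myl1 was the only member of which this held without scaling. With means of 453 bp in the control and 292 bp in the knockout, it passed the minimum of 300 bp only through the control libraries. Mybpc1, a myosin-binding protein of slow muscle, had 1359, 2052 and 1923 bp against 2913, 2152 and 2827 bp, with a difference of 0.35 ± 0.15, no overlap as called, and overlap after scaling. A region at the far end of the gene was gained (chr10:88518959-88519280, with 258, 319 and 268 bp). Mybpc2 and Mybpc3, the fast and cardiac forms, had 609 to 3132 bp over all libraries, overlapping groups and differences of -0.17 and 0.18. Myl3, of ventricle and slow muscle, had 200 to 304 bp in 1 region, in the flank.

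The thin filament showed both directions. Acta1, the skeletal α-actin gene (chromosome 8, 123891758 to 123894775), had 1890, 2253 and 1945 bp in the control and 2573, 2403 and 2128 bp in the knockout, which overlap, with a difference of 0.05 ± 0.07. One region 5823 bp before its start, inside the neighbour Nup133, was lost (chr8:123900598-123900862, with 256, 251 and 218 bp in the control). Actc1, the cardiac α-actin gene, had 202 bp in control library 3 and 0 in the other 5 libraries. Neb, the giant nebulin that runs along the thin filament, had 7468, 6941 and 5986 bp against 6120, 6306 and 6387 bp, which overlap as called and lie apart after scaling (-0.27 ± 0.09).

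Tnni2, the inhibitory troponin subunit of fast fibres (chromosome 7, 142441816 to 142444410), had 296, 297 and 349 bp in the control and 663, 957 and 595 bp in the knockout, a difference of 0.64 ± 0.15. Only 2 regions lay in its territory. The one over Syt8 was called in all libraries, and the one inside Tnni2 (chr7:142443404-142443879) was gained, with 316, 466 and 315 bp. The peaks of the latter stood at percentiles 56.3, 58.1 and 42.8 of their lists. The call of Tnni2 was lost without any 1 library except knockout library 3, with differences of 0.50 to 0.70.

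Tnni1, the slow counterpart, had 3600, 3528 and 4283 bp in the control and 3702, 3484 and 3478 bp in the knockout, which overlap as called. After scaling the knockout was lower, by -0.24 ± 0.10, and a region inside the gene was lost (chr1:135802055-135802325, with 255, 218 and 271 bp in the control). Another 2 regions inside Tnni1 had wider peaks in the knockout as called, with overlap of the groups after scaling. One of them (chr1:135787837-135788376) covered 468, 321 and 366 bp in the control and 517, 539 and 527 bp in the knockout. As called, both directions therefore occurred within this gene.

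The troponin T genes Tnnt1 (slow) and Tnnt2 (cardiac) had no overlap between the groups, with knockout higher. Tnnt1 (chromosome 7, 4504569 to 4515975) had 3178, 3298 and 2751 bp in the control and 4039, 4016 and 4068 bp in the knockout, a difference of 0.21 ± 0.07. One gained region lay inside Tnnt1 (chr7:4508118-4508420, with 270, 273 and 303 bp), within reach of the neighbour Tnni3 too, and the other at the end of Ppp1r12c (chr7:4502700-4503032). The widest increase there was inside Ppp1r12c, at a region (chr7:4498096-4498672) that covered 221, 212 and 200 bp in the control and 558, 535 and 572 bp in the knockout, a ratio of 2.63. Tnnt2 (chromosome 1, 135836315 to 135852268) had 1258, 1018 and 1087 bp against 1745, 1557 and 1617 bp, a difference of 0.31 ± 0.10. Its gained region, 9559 bp beyond the gene (chr1:135861827-135862629), was the widest of the 20 and had 773, 730 and 774 bp.

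Tnni3, the cardiac inhibitory subunit, had 2776, 2814 and 2480 bp against 2997, 2642 and 2806 bp, and Tnnt3, the fast troponin T, had 532, 546 and 0 bp against 466, 500 and 474 bp. Both overlap. The calcium-binding subunit gene Tnnc1 (slow and cardiac) had 3375, 3462 and 3564 bp against 3863, 3811 and 3597 bp, no overlap as called, and a difference of -0.05 ± 0.06 after scaling. A gained region 9192 bp before it lay inside Nisch (chr14:31198826-31199120, with 263, 295 and 200 bp). Tnnc2, the fast form, had 2114, 2140 and 2098 bp against 2118, 2138 and 2014 bp, nearly equal as called and lower after scaling, by -0.17 ± 0.06. Per kb of territory, Tnnc1 was the most covered member, with a mean of 148 bp per kb in the control and 160 in the knockout, and none of its 5 regions overlapped the gene itself.

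Desmin, the intermediate filament that links Z-discs and is found also in smooth muscle and pericytes, had more peaks in the knockout. The Des territory (gene at chromosome 1, 75360292 to 75368579) had 1623, 1634 and 1674 bp in the control and 2544, 2487 and 2414 bp in the knockout. The values within each group lay close together and far from those of the other group, with a difference of 0.37 ± 0.07, or 0.52 without scaling.

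Of 5 regions at Des, 2 were gained. One lay 2605 bp before the start (chr1:75357332-75357687, with 346, 356 and 340 bp) and the other 1506 bp into the gene (chr1:75361798-75362164, with 367, 362 and 363 bp). Between them stands the region beside the printed promoter (chr1:75360329-75360993), which was the same width in both groups, at 644, 639 and 649 bp in the control and 657, 633 and 664 bp in the knockout. The gained regions thus stand on either side of a region that did not differ in width beyond its spread. With 1 library left out the difference was 0.33 to 0.40, and with 50 kb flanks it was 0.10.

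Ldb3, a Z-disc protein also known as ZASP or cypher (chromosome 14, 34526699 to 34590314), had 3662, 4251 and 3997 bp in the control and 5262, 5030 and 4996 bp in the knockout. The groups were separate, with a difference of 0.18 ± 0.06, or 0.34 without scaling. Of its 3 gained regions, 2 lay inside the gene (chr14:34540604-34541100 with 497, 282 and 485 bp, and chr14:34562333-34562842 with 356, 510 and 411 bp). The other lay at the end of Opn4, the melanopsin gene next to it (chr14:34591179-34591817, with 639, 408 and 518 bp).

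Actn2, the α-actinin of heart and skeletal Z-discs, had 3014, 3770 and 3015 bp against 3880, 3555 and 3677 bp, which overlap. A gained region inside it (chr13:12295877-12296260) had 384, 262 and 325 bp, and beside it a region of all 6 libraries (chr13:12296559-12297070) was narrower in the knockout, at 297, 334 and 273 bp against 497, 441 and 396 bp. Peaks over the printed Actn2 promoter belong to a region (chr13:12340125-12341152) of 993, 939 and 947 bp in the control and 998, 976 and 1014 bp in the knockout. Actn3, of fast fibres, had 3260, 3243 and 3163 bp against 3381, 3158 and 3145 bp, overlapping as called and lower after scaling, by -0.15 ± 0.06. Ttn, the giant titin spring of the sarcomere, was among the least covered per kb, with 7.72 bp per kb in the control and 7.44 in the knockout, and its groups overlapped.

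Ryr1, the calcium release channel of skeletal muscle, showed the most gained regions. Its territory (gene at chromosome 7, 29003340 to 29125179) had 3343, 3366 and 3459 bp in the control and 6189, 5576 and 5267 bp in the knockout. The lowest knockout library was well above the highest control library, with a difference of 0.53 ± 0.08, or 0.69 without scaling. Per kb this was 23.9 bp in the control and 40.0 bp in the knockout. With 1 library left out the difference was 0.47 to 0.57.

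All 4 gained regions of Ryr1 lay inside the gene, between 34644 and 80523 bp from its start. The 2 nearest the start had strong peaks. At chr7:29089760-29090507 the peaks had 715, 748 and 718 bp and stood at percentiles 94.2, 95.9 and 93.4 of the knockout lists. At chr7:29084229-29084822 they had 513, 538 and 550 bp and stood at 95.9, 94.6 and 89.6. The other 2 (chr7:29067666-29068146 and chr7:29044247-29044628) had 281 to 481 bp and percentiles of 39.0 to 64.8. Strong peaks thus occurred at 2 of the 4 sites in each knockout library, where each control library had no peak.

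The start of Ryr1 differed too. The region over the printed promoter (chr7:29124879-29125404) covered 274, 207 and 292 bp in the control and 514, 492 and 503 bp in the knockout, a ratio of 1.95. Every knockout peak there was wider than every control peak. Other regions inside Ryr1 went either way. One (chr7:29052867-29053195) covered 219, 200 and 256 bp in the control and 303, 329 and 314 bp in the knockout, and one (chr7:29061577-29062099) had a peak in 1 control and 3 knockout libraries. In the opposite direction, a region (chr7:29019602-29020147) had 546, 535 and 526 bp in the control and 361, 240 and 0 bp in the knockout, and another (chr7:29039439-29040149) 696, 696 and 695 bp against 666, 452 and 410 bp.

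**Figure D3:**
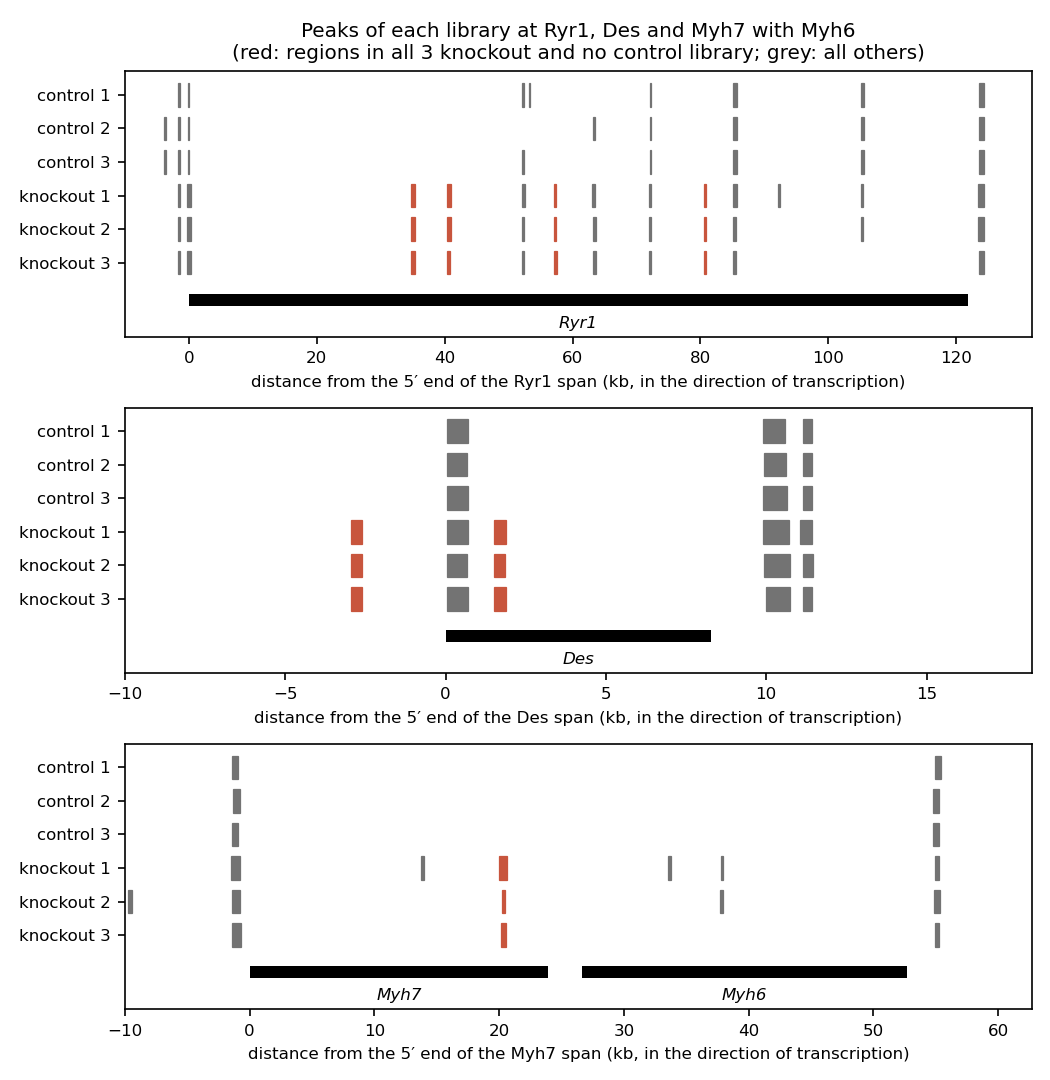
Peaks of each of the 6 libraries (1 row per library) at Ryr1, Des and Myh7 with Myh6, drawn to scale as distance from the 5′ end of the gene span (kb), with peaks of gained regions in red, all others in grey and gene spans as black bars. At Ryr1 the 4 gained regions lie between 34644 and 80523 bp into the gene, and at Des 2 gained regions stand on either side of the region beside the start.

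Ryr2, the channel of heart muscle and also of neurons and endocrine cells, spans the longest territory here. It had 3830, 4918 and 4080 bp in the control and 5941, 4844 and 7210 bp in the knockout, with knockout library 2 inside the control range and a difference of 0.29 ± 0.14. The region at its start covered 809, 878 and 1088 bp in the control and 1194, 1176 and 1216 bp in the knockout. It was wider in every knockout library as called, and the groups overlapped after scaling. A gained region (chr13:11790552-11790871) had 265, 238 and 318 bp. Per kb of territory Ryr2 had 7.45 bp in the control and 10.5 in the knockout.

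Casq1, the calsequestrin of fast fibres, had 2913, 3546 and 2697 bp against 2924, 2990 and 2788 bp, overlapping as called and lower after scaling, by -0.21 ± 0.07. A region beside the end of its neighbour Pea15a was lost (chr1:172207294-172207543, with 250, 213 and 213 bp in the control). Casq2, the cardiac form, and Ckm, the muscle creatine kinase, had differences of -0.10 and -0.06 with 1978 to 2519 bp over all libraries, and after scaling their groups overlapped. As called, Ckm was higher in every knockout library.

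**Figure D4:**
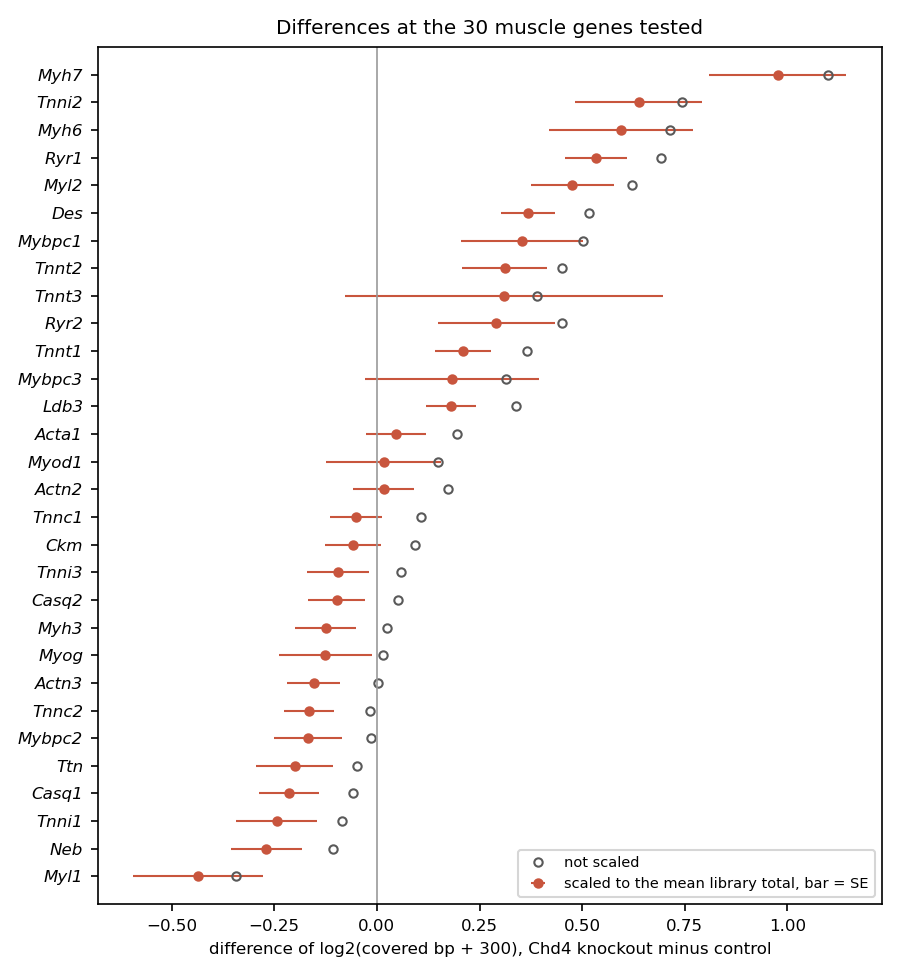
Log2 difference in covered bp between knockout and control (scaled, 300 bp added) for the 30 genes with enough covered bases, as filled points with their SE and ordered by size, and without scaling as open circles. Myh7 is highest at 0.98 and Myl1 lowest at -0.44, and the median of all 17711 genes tested is -0.09.

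The width of peaks at regions called in all 6 libraries is a measure within the same contrast and is given as a description. Of the 100 such regions at these genes, peaks were wider as called in all 3 knockout than in all control libraries at 26, where 18.8% of all such regions were, and narrower at 11, where 14.0% were. After scaling to the library totals, 6 were wider and 31 narrower, where 7.61% and 39.6% of all such regions were. Over or at the end of another gene lay 30 of the 100. This count takes in regions inside Tnnt1 that also fell to the neighbouring member Tnni3.

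Outside the 38 genes, 100 further genes of striated muscle in 5 lists by role gave no common direction. Of 96 tested by limma (Benjamini-Hochberg over all genes), covered length rose at 8, which is 8.33% where 7.57% of all genes did so, and fell at 10, which is 10.4% where 14.6% did, with a median log2 difference of -0.02, against -0.09 for all genes. Without scaling 24 were higher and 3 lower, which is 25.0% and 3.12% where 14.6% and 2.88% of all genes were, with a median of 0.11 against 0.06 for all genes. The lists were written with earlier results of these data known. Of the 14 called genes that the naming rule selects from them, 9 were called in the same direction without scaling, 5 with gene spans alone, 4 with 50 kb flanks and 2 with the 50000 strongest peaks.

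Other sarcomere genes gave 3 of 34 higher and 4 lower, which is 8.82% and 11.8%, beside 7.57% and 14.6% of all genes. Lmod3, which lengthens thin filaments, fell most, from 936, 1139 and 974 bp to 290, 329 and 269 bp (-1.25 ± 0.11). With a knockout mean of 296 bp, it passed the minimum of 300 bp only through the control libraries, so no p is given. Tpm1, a tropomyosin gene active in many cell types, fell by 0.46 ± 0.10 (limma adjusted p = 0.017), and Myh13, the heavy chain of eye muscles, rose from 609, 578 and 601 bp to 925, 1221 and 915 bp (0.43 ± 0.11, limma adjusted p = 0.034). Leaving out 1 library ended the call of Tpm1 without control library 3 (limma adjusted p = 0.060). It ended that of Myh13 without any library except knockout library 3 (limma adjusted p = 0.065 to 0.093).

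Genes of excitation and calcium handling gave 1 of 24 higher and 1 lower, which is 4.17% each, beside 7.57% and 14.6% of all genes. Scn4a, the sodium channel of muscle, had 3759, 4038 and 3568 bp in the control and 5672, 6434 and 4791 bp in the knockout, and rose by 0.37 ± 0.09 (limma adjusted p = 0.025). Stac3, which couples the voltage sensor to Ryr1, fell from 3281, 3219 and 3494 bp to 2726, 2819 and 2598 bp (-0.42 ± 0.07, limma adjusted p = 0.0092). The Scn4a call was lost without any 1 library except knockout library 3 (limma adjusted p = 0.057 to 0.083), and its difference was 0.00 to 2 decimals with the 50000 strongest peaks. Of 9 tested genes of the muscle membrane and of cell fusion, 0 were called higher and 1 lower, beside 7.57% and 14.6% of all genes. Mymx, which fuses myoblasts, was the gene called lower (-0.24 ± 0.07, limma adjusted p = 0.045). It was not called without any 1 of the 6 libraries (limma adjusted p = 0.052 to 0.12).

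Genes of muscle energy metabolism gave 2 of 14 higher and 1 lower, which is 14.3% and 7.14%, beside 7.57% and 14.6% of all genes. Pgam2, the muscle phosphoglycerate mutase, had 0 bp under peaks in each control library and 695, 895 and 323 bp in the knockout. It passed the minimum of 300 bp only through the knockout libraries, so no p is given. Ckmt2, the mitochondrial creatine kinase of sarcomeres, rose from 393, 314 and 288 bp to 1353, 1187 and 1512 bp (1.27 ± 0.13, limma adjusted p = 0.0020). Cox8b, a cytochrome oxidase subunit of heart and muscle, fell from 1542, 1718 and 1374 bp to 1244, 864 and 962 bp (-0.62 ± 0.12, limma adjusted p = 0.013). Without knockout library 1 or 2 Pgam2 had a mean under 300 bp, and Ckmt2 and Cox8b were called without any 1 library.

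Regulators of heart and muscle gave 2 of 15 higher and 3 lower, beside 7.57% and 14.6% of all genes. Hand1, a factor of the embryonic heart, rose from 581, 1114 and 495 bp to 1546, 1420 and 1187 bp (0.63 ± 0.19, limma adjusted p = 0.048). The MEF2 genes were split, with Mef2c higher by 0.24 ± 0.07 (limma adjusted p = 0.04997) and Mef2b and Mef2a lower, by -0.40 ± 0.08 and -0.29 ± 0.07 (limma adjusted p = 0.014 and 0.032). Mef2b lost its call only without control library 3 (limma adjusted p = 0.054). Hand1 and Mef2c lost theirs without any 1 library except control library 2 (limma adjusted p = 0.058 to 0.14 and 0.091 to 0.15), and Mef2a without control library 2 or 3 or knockout library 1 or 3 (0.067 to 0.11).

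Genes of cell types that a sort could carry along were read the same way. Over 14 genes of smooth muscle and pericytes, where Des is also active, the territories together had 32392 to 35406 bp in the control and 36397 to 39095 bp in the knockout, or 0.555 to 0.573 and 0.553 to 0.580 of every 1000 covered bases. None of the 14 was at 0 in all libraries. Of the 14, 2 were called higher and 1 lower, which is 14.3% and 7.14%, beside 7.57% and 14.6% of all genes. Myl9 had 0, 222 and 0 bp in the control and 992, 1082 and 536 bp in the knockout, and it passed the minimum of 300 bp only through the knockout libraries. Covered length rose at Pdgfrb (0.79 ± 0.11, limma adjusted p = 0.0051) and fell at Synpo2 (-0.40 ± 0.08, limma adjusted p = 0.012). The direction of Pdgfrb turned with the 50000 strongest peaks, at -1.22.

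Over 8 endothelial genes the territories had 0.196 to 0.202 of every 1000 covered bases in the control and 0.226 to 0.244 in the knockout. By limma 2 of these genes were higher (Eng and Erg) and 2 lower (Emcn and Sox17), which is 25.0% each. Of all genes, 7.57% were higher and 14.6% lower. Emcn passed the minimum only through the control libraries. Over 8 acinar genes the territories had 0.078 to 0.081 of every 1000 in the control and 0.095 to 0.101 in the knockout. Cpa1, Pnlip and Amy2b were at 0 in every library. Of 4 acinar genes tested, 2 were higher (Ctrb1 and Cela2a), which is 50.0%, and 0 lower. Over 8 leukocyte genes the territories had 0.216 to 0.221 of every 1000 in the control and 0.193 to 0.212 in the knockout. Of 7 leukocyte genes tested, 1 was higher (Cd74) and 1 lower (Spi1), which is 14.3% each. The 38 muscle genes had 1.10 to 1.14 of every 1000 covered bases in the control and 1.12 to 1.20 in the knockout. The part of other cell types in the values of the muscle genes was not tested.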

How the data were processed

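ATAC-seq peak lists of 3 control and 3 Chd4KO libraries of sorted β-cells were used, grouped by the genotype label. Each library has its own list, so the lists used here are not pooled over replicates. Per the peak names in the deposited files, MACS2 was run on shifted cutting sites; its version, its settings and the aligner are not stated. The submitters' processing notes name the build mm10. The deposited columns used are the authors' −log10 q, for ranking and filtering peaks of the same list. The authors' score, the fold enrichment (a ratio) and the −log10 p of each deposited peak entered no comparison. All peaks have q under 0.05. The lists hold no reads, so depth is unknown and limits the precision in a way that cannot be stated.

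Gene spans and promoters came from RefSeq on GRCm38.p6, the assembly that mm10 names. Peaks of the 6 lists were merged at 1 bp overlap. Covered bp per gene span plus 10 kb were scaled to the mean library total, 300 bp were added and log2 taken, which understates differences at genes with few peaks. Genes with a mean of at least 300 bp unscaled were fitted with limma 3.58.1 in R 4.3.3 (intensity trend, Benjamini-Hochberg over all genes, threshold 0.05). The code was tested on simulated data. Other steps used Python 3.11.15, pandas 2.3.3 and numpy 2.4.6.

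The 38 genes and the lists were chosen with earlier results of these data known. Genes with a gained or lost region or without overlap of the groups after scaling, and the 4 myogenic regulators, are given library by library; of each other list, up to 4 called genes with the largest difference are named. The values of 1 gene selected by this rule are not reported here. Marker genes of other cell types that are named were all those called. The alternatives were no scaling, 100 or 1000 bp added, no minimum, gene spans alone, 50 kb flanks, the 50000 strongest peaks, q under 0.001, a peak over at least 50% of a region, a replicate block and each library left out.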

Additional observations from a re-analysis of the deposited data

How the results depend on the processing

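Results at the 38 genes depended most on the territory and on weak peaks. The number called higher (6) was 3 with gene spans alone (20 genes tested) and 3 to 6 with a library left out, 3 of them without control library 3. The number called lower (0) was 1 with gene spans alone (Myl1), 4 with 50 kb flanks (Myl1, Mybpc3, Neb and Tnnc2), 1 with the 50000 strongest peaks (Myh3) and 0 to 1 with a library left out. Gained regions (20) numbered 43 with 50 kb flanks, 11 with the strongest peaks and 20 to 25 with a library left out. Lost regions (3) numbered 1 with gene spans alone, 6 with 50 kb flanks, 8 with the strongest peaks and 3 to 6 with a library left out, 6 of them without control library 3. Shared regions (100) numbered 50, 261 and 49 under the same alternatives and 101 to 105 with a library left out. The shares of all genes and all regions under these alternatives are not given here. Whether the changes in these counts exceed those over all genes and regions was therefore not tested. The knockout to control ratio of covered bp (1.17) was 1.04 scaled, 1.24 with gene spans alone, 1.06 with the strongest peaks and 1.15 to 1.20 with a library left out. The sign turned for Myh6 (-0.10 with 50 kb flanks, -0.19 with the strongest peaks), Mef2a (0.07 and 0.06), Scn4a (-0.00 with the strongest peaks) and Pdgfrb (-1.22 with the strongest peaks). Territory alternatives change which bases are counted and the strongest-peak alternative removes weak peaks, and the cause of these changes was otherwise not tested.

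With the replicate number as a block, 5 genes were called higher (Myh7, Myl2, Tnnt2, Des and Ryr1) and 0 lower. The share of all genes called with the block is not given here, so nothing is read from these counts. The deviations of libraries with the same number had correlations of 0.13, 0.09 and -0.03 over genes, against -0.16 to 0.08 for libraries with different numbers. Whether libraries with the same number share more than that number cannot be told from these values. Depth in reads is unknown, so a region called in no control library was below the calling threshold there and is not shown to lack reads.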

Other observations

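The genes without peaks lie in long stretches without called regions. The nearest region to Myf5 was 39746 bp away, to Myf6 49686 bp and to Myh8 41153 bp. No region called in all 6 libraries lay within 47689 bp of Myh1 or within 85399 bp of Myh4, while Myh3, in the same cluster, contained several. Within 50 kb of Ryr1, named here as the member with the most gained regions, there were 27 regions, of which 7 were gained and 0 lost. Of all regions, 10.3% were gained and 2.62% lost.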
